A study of Mus musculus with 30 samples.

Results

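The values below describe 10 genes of the integrated stress response and the unfolded protein response in the *muscularis externa* (*ME*) of the mouse small bowel: *Atf4*, *Ddit3*, *Chac1*, *Trib3*, *Asns*, *Hspa5*, *Xbp1*, *Ppp1r15a*, *Sesn2* and *Herpud1*. They were taken by symbol as known members of these pathways, with earlier results of these data known, and are 10 of 28586 genes listed in any of the count tables. In the gene table of total *ME* RNA, each gene had a value of its own, and in the tables of ribosome-bound mRNA the values of a gene's transcripts were summed. All 10 genes were listed for total *ME* RNA and in the 3 h table of ribosome-bound mRNA. *Chac1* was missing from the 24 h and 72 h tables of ribosome-bound mRNA, which, like all tables, list no feature with a total under 10 counts.

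The study followed enteric glia, the support cells of the gut's own nervous system, in postoperative ileus, the temporary loss of bowel movement after abdominal surgery. Mice were left naïve or were operated on with intestinal manipulation (IM), in which the small bowel is handled mechanically, and were sacrificed after 3 h (IM3h), 24 h (IM24h) or 72 h (IM72h). The *RiboTag* fraction is mRNA precipitated with HA-tagged ribosomes from *ME* lysate of Tg(Sox10-icre/ERT2)388Wdr/J x Rpl22tm1.1Psam/J mice, in which tamoxifen switches on Cre, and with it the tag on the ribosomal protein RPL22, in *Sox10*-expressing cells. The *ME* fraction is total RNA of the lysate, from all of its cells. Naïve mice carried the same tag and Cre as the operated mice of their fraction, with one break: labels give the Gfap-cre line Tg73.12Mvs/J crossed with the tag for *ME* naïve and *ME* IM3h, and the Sox10-icre/ERT2 line for *ME* IM24h and *ME* IM72h. Cre line and time after surgery therefore cannot be told apart in *ME* IM24h and IM72h against naïve mice. The study used adult male mice.

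Cells that meet viral RNA, a shortage of amino acids or heme, or unfolded proteins in the endoplasmic reticulum (ER) phosphorylate the translation factor eIF2α through a family of kinases. Bulk translation then slows, while the mRNA of the transcription factor ATF4 is translated better because of its upstream reading frames. ATF4 switches on genes for amino acid supply and, with its partner CHOP, genes that can end in cell death. In parallel, the ER sensors IRE1 and ATF6 raise chaperones and the machinery that degrades misfolded proteins, IRE1 by splicing *Xbp1* mRNA. The libraries count mRNA 3′ ends, so they tell neither spliced from unspliced *Xbp1* nor how well *Atf4* mRNA on ribosomes was translated.

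Reads were counted in 15 *RiboTag* libraries (3 naïve, 4 each at IM3h, IM24h and IM72h) with totals of 3010306 to 7899493 counts, and in 14 *ME* libraries (3 naïve, 3 IM3h, 4 IM24h and 4 IM72h) with 6603170 to 12866062. Labels list 4 naïve *RiboTag* samples, the tables hold 3, and these same 3 were the controls at every time point. AY036118, an rRNA gene, took 2.68 to 14.0% of the counts in *RiboTag* naïve, 2.02 to 10.3% in IM3h, 22.2 to 59.2% in IM24h and 58.0 to 80.1% in IM72h, so the latest *RiboTag* libraries hold the fewest mRNA reads. In *ME* it took 16.1 to 33.5% in naïve, 24.1 to 25.1% in IM3h, 1.33 to 6.5% in IM24h and 2.34 to 3.69% in IM72h. The 5 glial markers *Sox10*, *S100b*, *Erbb3*, *Foxd3* and *Gfap* were detected in both fractions. Their summed level was 1280 to 1630 CPM (counts scaled to a common library size) in *RiboTag* naïve against 81.4 to 89.9 in *ME* naïve, and the *RiboTag* sum was 1150 to 2530 in IM3h, 604 to 882 in IM24h and 140 to 1130 in IM72h. The 5 smooth muscle markers also gave 4240 to 6450 CPM in *RiboTag* naïve and 1790 to 4640 in *RiboTag* IM3h, and the 6 neuronal markers gave 497 to 991 CPM in *RiboTag* naïve, 580 to 1340 in *RiboTag* IM3h and 470 to 476 in *ME* naïve, so the *RiboTag* fraction is enriched for glial mRNA and not free of muscle or neuronal mRNA. Levels of members in single libraries and of markers are CPM of library totals scaled by TMM over all libraries of a fraction. Levels of sensors and list genes, and the means of the naïve fractions at baseline, were scaled over the libraries of their own comparison. The same libraries can therefore have different values in different comparisons. Levels are not compared between genes. The number of a library follows its name in the count tables and is not a replicate number of the labels.

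To show the sequences next to which these genes are transcribed, the 300 bases from 250 before to 50 after each transcription start (RefSeq, GRCm38.p6) were searched on both strands for 5 motifs known from the pathway. CARE (TGATG, any 1 base, AA) is the half-site pair bound by ATF4 with C/EBP proteins and was found in 3.97% of all 32851 promoters of the same length. ERSE (CCAAT, any 9 bases, CCACG), bound by ATF6 and XBP1 with NF-Y, was found in 0.119%, ERSE-II (ATTGG, any 1 base, CCACG) in 0.0365%, UPRE (TGACG followed by TGG) in 0.676% and the cAMP response element CRE (TGACGTCA) in 1.79%. Of the 10 genes, 6 held at least 1 of the motifs: *Hspa5* an ERSE, *Herpud1* an ERSE-II and a CARE, *Chac1*, *Asns* and *Trib3* a CARE, and *Ppp1r15a* a CRE. The windows of *Atf4*, *Ddit3*, *Xbp1* and *Sesn2* held none of these letter strings. The 200 bases before the start are given here for the 5 genes whose match lies in them, 5′ to 3′ on the gene's strand, with the matches in capitals. A match is a string of letters and was not tested for binding.
Hspa5 (chr2:34771890-34772089, plus strand): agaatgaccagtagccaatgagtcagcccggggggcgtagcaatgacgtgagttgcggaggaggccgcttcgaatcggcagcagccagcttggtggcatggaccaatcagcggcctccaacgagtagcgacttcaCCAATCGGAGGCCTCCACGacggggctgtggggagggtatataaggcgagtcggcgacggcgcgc
Herpud1 (chr8:94386229-94386428, plus strand): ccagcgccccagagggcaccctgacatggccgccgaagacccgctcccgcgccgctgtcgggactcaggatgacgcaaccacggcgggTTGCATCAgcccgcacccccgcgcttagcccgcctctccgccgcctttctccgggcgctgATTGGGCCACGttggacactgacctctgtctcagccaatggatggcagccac
Chac1 (chr2:119351042-119351241, plus strand): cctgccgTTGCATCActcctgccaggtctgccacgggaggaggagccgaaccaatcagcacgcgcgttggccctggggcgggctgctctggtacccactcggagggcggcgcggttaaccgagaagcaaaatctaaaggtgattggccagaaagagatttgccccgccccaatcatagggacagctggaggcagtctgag
Asns (chr6:7693210-7693409, minus strand): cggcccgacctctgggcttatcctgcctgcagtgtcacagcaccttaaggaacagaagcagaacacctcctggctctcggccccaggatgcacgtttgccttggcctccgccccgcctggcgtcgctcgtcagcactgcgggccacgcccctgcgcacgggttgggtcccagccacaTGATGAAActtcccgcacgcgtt
Ppp1r15a (chr7:45526269-45526468, minus strand): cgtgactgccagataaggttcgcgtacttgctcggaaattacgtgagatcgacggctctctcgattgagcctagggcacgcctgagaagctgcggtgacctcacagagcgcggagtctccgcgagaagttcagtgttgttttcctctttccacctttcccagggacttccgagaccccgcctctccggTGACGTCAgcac
The ERSE of *Hspa5* spans bases -65 to -47 before the start and the ERSE-II of *Herpud1* bases -52 to -42. The CARE of *Chac1* starts at -193, that of *Herpud1* at -112 and that of *Asns* at -23, while the match of *Trib3* lies after its start, from base 15 to 22. The CRE of *Ppp1r15a*, which reads the same on both strands, starts at -12.

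In *RiboTag* mRNA at IM3h, *Atf4*, *Ppp1r15a* and *Hspa5* rose, with every IM3h library above every naïve one. *Atf4* (chr15:80255184-80257545), the central transcription factor of the integrated stress response, was at 72.3, 102 and 112 CPM in the 3 naïve libraries and at 419, 433, 426 and 309 CPM in the 4 IM3h libraries, a log2 fold change of 2.12 ± 0.26 (SE; edgeR quasi-likelihood test, Benjamini-Hochberg adjusted p = 0.000372). The 3 highest IM3h libraries lay within 419 to 433 CPM, and library 4 was lower. *Ppp1r15a* (chr7:45522917-45526268) encodes GADD34, which recruits a phosphatase to eIF2α and so closes the response. Its naïve libraries held 12.8, 8.77 and 23.8 CPM and its IM3h libraries 146, 188, 209 and 95.2 CPM (log2 fold change 3.46 ± 0.41, adjusted p = 0.000314). This was the steepest change among the 9 members tested in *RiboTag* IM3h, which leave out *Chac1*. The study lists *Ppp1r15a* among its acute gliosis genes for its fold change in these same libraries, so that listing is not independent evidence of its direction.

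*Hspa5* (chr2:34772090-34776529) encodes BiP, the main ER chaperone, which holds the ER sensors inactive until unfolded proteins draw it away. It stood at 171, 193 and 132 CPM in naïve and 407, 362, 345 and 340 CPM in IM3h *RiboTag* libraries (log2 fold change 1.19 ± 0.23, adjusted p = 0.00585). The 4 IM3h values were close together (363 ± 30.5 CPM, SD, n = 4) and apart from naïve (166 ± 30.9 CPM, n = 3). In all, 3 of the 9 members tested in *RiboTag* IM3h were higher, beside 8.86% of all 16053 genes tested, and 0 were lower, beside 4.44%. Of the 9, 4 had an unadjusted p under 0.05, all of them higher, beside 4305 of the 16053 genes in either direction. DESeq2 called 4 higher and 0 lower. The 3 calls rested on the fit: with all 15 *RiboTag* libraries in one fit, whose shared spread includes the late libraries, none was called (adjusted p = 0.45 for *Atf4*, 0.782 for *Hspa5* and 0.715 for *Ppp1r15a*), and after scaling by *Actb*, *Hsp90ab1* and *Rplp1* *Ppp1r15a* was the 1 gene still called. The log2 fold changes stayed above 0 in all 14 alternatives, from 1.71 to 2.26 for *Atf4*, 0.80 to 1.33 for *Hspa5* and 3.13 to 3.96 for *Ppp1r15a*.

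The other 7 members showed no called change in *RiboTag* IM3h. *Xbp1* (chr11:5520641-5525993), the transcription factor that IRE1 activates by splicing, was at 17.4, 17.1 and 16.2 CPM in naïve and at 62.7, 59.1, 39.9 and 13.5 CPM in IM3h libraries (log2 fold change 1.43 ± 0.45, adjusted p = 0.0548). In 3 of the 4 IM3h libraries *Xbp1* was above all naïve values, and in library 4 it was below them. Without library 4 the adjusted p was 0.00144 (log2 fold change 1.73), and DESeq2 on all libraries gave 0.0176. The fit without library 4 is 1 of 7 that left out a library, and is given because that library stood apart. *Xbp1* was not called after scaling by the reference genes or with all *RiboTag* libraries in one fit. *Ddit3* (chr10:127290793-127296291), which encodes CHOP, overlapped between the groups, with 4.8, 12.5 and 11.3 CPM in naïve and 13.4, 16.3, 7.75 and 7.71 CPM in IM3h (log2 fold change 0.30 ± 0.49, adjusted p = 0.759). *Herpud1* (chr8:94386429-94395371), an ER membrane protein that organises the degradation of misfolded proteins, was at 37.9, 44.7 and 26.9 CPM in naïve and 30.8, 31.3, 24.2 and 12.7 CPM in IM3h (-0.50 ± 0.35, adjusted p = 0.41).

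The remaining ATF4 targets had few counts or a wide spread in *RiboTag* libraries. *Asns* (chr6:7675165-7693209), asparagine synthetase, was at 2.78, 7.75 and 7.78 CPM in naïve and 4.46, 6.36, 3.35 and 0.651 CPM in IM3h (adjusted p = 0.675). *Trib3* (chr2:152337425-152344060), a pseudokinase that holds ATF4 back, had 6, 15 and 13 counts in naïve and 7, 13, 0 and 52 in IM3h, and *Sesn2* (chr4:132492804-132510456), a leucine sensor that restrains mTORC1, had 8, 18 and 11 counts in naïve and 50, 40, 18 and 0 in IM3h. Neither differed beyond the spread (adjusted p = 0.915 and 0.773). *Chac1* (chr2:119351242-119354326), which degrades glutathione, had 0 counts in all 3 naïve libraries and 14, 8, 10 and 0 in IM3h, and did not pass the filter on low counts. A count of 0 allows up to 3 counts in that library. For *Trib3* and *Sesn2* the spread among IM3h libraries was wide (SE 1.51 and 1.38).

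**Figure D1:**
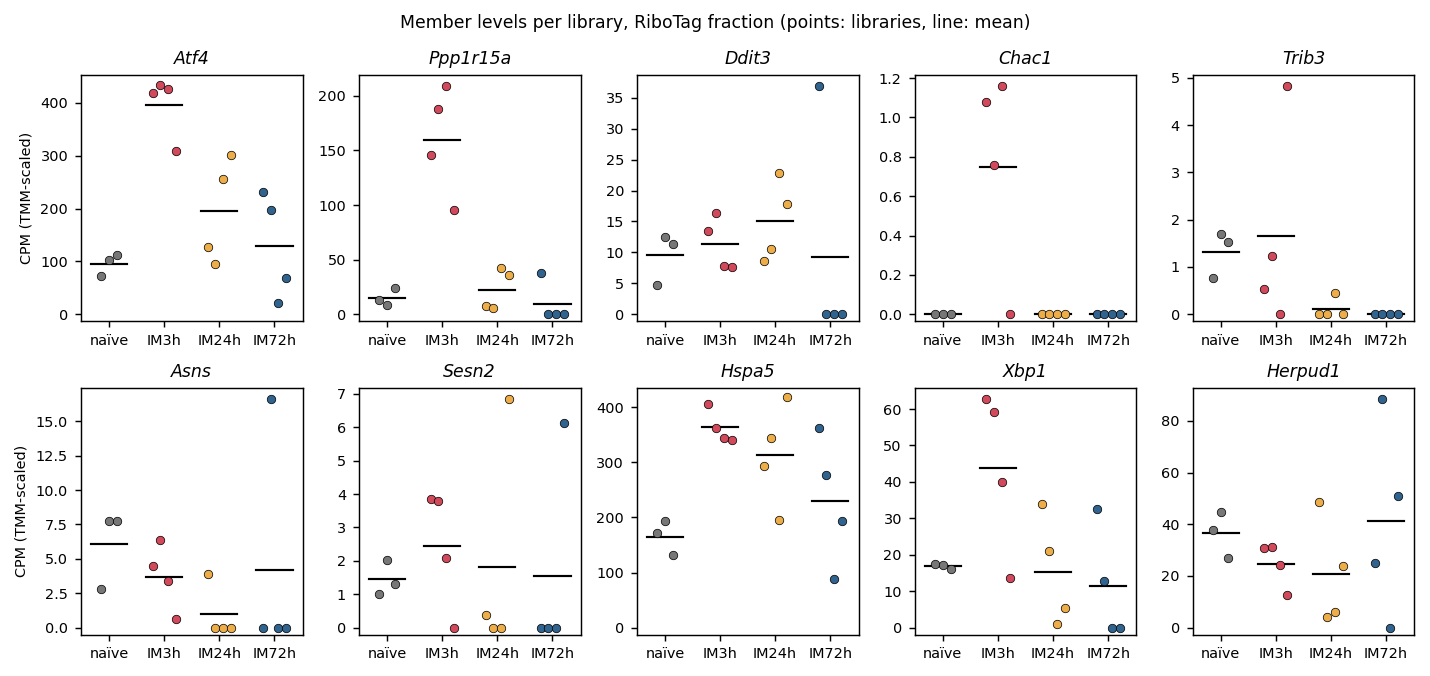
CPM (linear axis, library totals scaled by TMM) of the 10 genes in each *RiboTag* library, 3 naïve and 4 at each time after intestinal manipulation; points are libraries, lines are means, and *Chac1*, not listed at 24 h and 72 h, is drawn at 0 there. *Atf4*, *Ppp1r15a* and *Hspa5* in IM3h lie above all naïve libraries, while *Xbp1* does so in 3 of 4.

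In total *ME* RNA at IM3h all 10 members were higher than in naïve mice, and for each of them every IM3h library lay above every naïve one. The background was wide, since 19.3% of all 15333 genes tested were higher and 13.4% were lower. At an unadjusted p under 0.05, 6705 of these genes differed in either direction. For how many of all genes the libraries did not overlap was not counted. Of the 10 members 0 were lower, also by DESeq2 or at an unadjusted p under 0.05. The median log2 fold change of the 10 was 1.81, beside 0.00 over all genes tested. *Atf4* went from 120, 111 and 141 CPM to 729, 869 and 806 CPM (log2 fold change 2.74 ± 0.13, adjusted p = 4.19e-07). *Ppp1r15a* went from 22.4, 15.7 and 14.5 CPM to 161, 316 and 187 CPM (3.70 ± 0.27, adjusted p = 6.43e-06). *Hspa5* went from 217, 222 and 277 CPM to 898, 968 and 915 CPM (2.0 ± 0.13, adjusted p = 2.4e-06). The groups were far apart for all 3 genes, and *Ppp1r15a* spread most among the IM3h libraries.

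Members that did not pass in *RiboTag* did so here. *Sesn2* was at 1.09, 0.86 and 1.93 CPM in naïve and 6.05, 9.57 and 7.97 CPM in IM3h (log2 fold change 2.59 ± 0.39, adjusted p = 0.000756). *Xbp1* was at 49.2, 39.3 and 56 CPM and rose to 104, 106 and 91.8 CPM (1.10 ± 0.14, adjusted p = 0.000255), and *Herpud1* from 53.8, 46.6 and 45.4 CPM to 86.5, 99.3 and 89.1 CPM (0.96 ± 0.11, adjusted p = 0.000159). These 3 kept their call in all 14 alternatives, as did *Atf4*, *Hspa5* and *Ppp1r15a*. *Ddit3*, at 22.2, 20.4 and 25.9 CPM in naïve and 34, 44.6 and 32.5 CPM in IM3h (0.74 ± 0.17, adjusted p = 0.00699), lost its call under scaling by library totals (adjusted p = 0.11) and by the reference genes (0.16).

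The 3 weakest calls in *ME* IM3h were lost without single libraries. *Asns* was at 15.2, 9.03 and 12 CPM in naïve and 24.6, 15.9 and 22.7 CPM in IM3h (log2 fold change 0.84 ± 0.24, adjusted p = 0.0208), and it was called in 2 of 6 fits that left out 1 library, failing without IM3h library 1 (adjusted p = 0.0673) or 3 (0.0591) and without naïve library 2 (0.0607) or 3 (0.0821). *Trib3* had 9, 2 and 4 counts in naïve and 27, 13 and 16 in IM3h (2.04 ± 0.55, adjusted p = 0.0169), with a call in 3 of those 6 fits, failing without IM3h library 1 (0.0756) and naïve library 2 (0.0541) or 3 (0.0873). *Chac1* had 7, 1 and 11 counts in naïve and 19, 17 and 15 in IM3h (1.61 ± 0.55, adjusted p = 0.0454), with a call in 0 of the 6 (adjusted p = 0.0579 to 0.14). Leaving out 1 library gave 7 to 9 members called higher, and scaling by library totals or by the reference genes, which moved the median of all genes to -0.26 and -0.41, gave 7 each, with all 10 fold changes above 0.

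**Figure D2:**
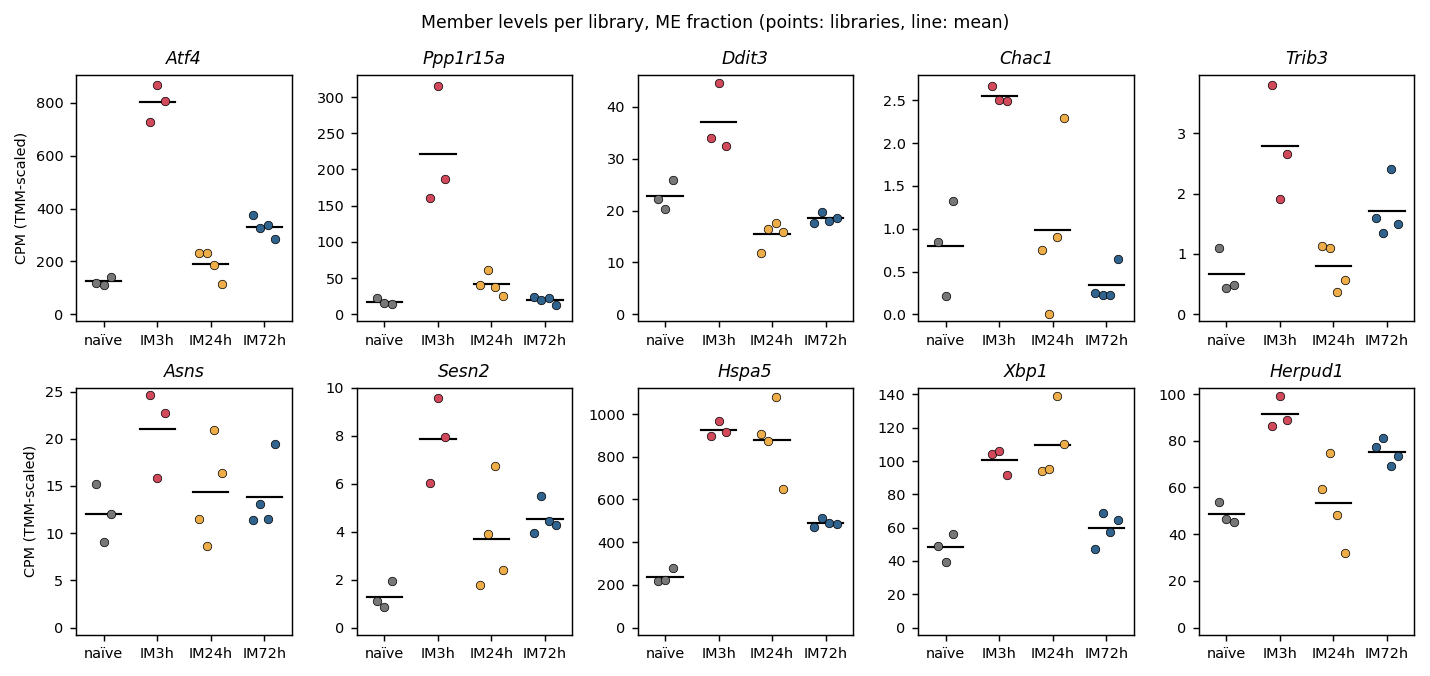
CPM (linear axis, library totals scaled by TMM) of the 10 genes in each *ME* library, 3 naïve, 3 IM3h, 4 IM24h and 4 IM72h; points are libraries and lines are means. In IM3h every library lies above all naïve libraries for each gene, and the *Hspa5* libraries of IM24h overlap those of IM3h.

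Total *ME* RNA joins many cells, and fewer cells of a type cannot be told apart from less RNA per cell. Markers of other cells moved with the time points. The 5 neutrophil markers, of which *Ly6g* had no count used here, summed to 0.645 to 0.846 CPM in *ME* naïve, 20.6 to 28.9 in IM3h, 43.8 to 207 in IM24h and 16.5 to 49.1 in IM72h. The 5 macrophage markers, all detected, summed to 83.5 to 88.5 CPM in naïve, 68.9 to 84 in IM3h, 111 to 258 in IM24h and 240 to 290 in IM72h. The 5 smooth muscle markers summed to 19400 to 20900 CPM in naïve, 14800 to 17400 in IM3h, 3010 to 9340 in IM24h and 10700 to 17300 in IM72h. The 4 mesothelial markers summed to 86.5 to 125 CPM in *ME* naïve, 1.77 to 11.7 in IM3h, 6.49 to 73.7 in IM24h and 30.1 to 71.3 in IM72h. At IM3h the 3 markers of interstitial cells of Cajal were at 233 to 238 CPM against 343 to 347 in naïve, the 3 endothelial ones at 25.3 to 34 against 18.2 to 19.3 and the 6 neuronal ones at 380 to 423 against 470 to 476. The 5 glial markers summed to 81.4 to 89.9 CPM in *ME* naïve and 96.4 to 123 in IM3h, without overlap, and to 76.4 to 109 in IM24h and 86.2 to 210 in IM72h. Later in *ME*, interstitial cell markers were at 229 to 370 CPM in IM24h and 153 to 171 in IM72h, endothelial ones at 25.9 to 40 and 33.1 to 41.2, and neuronal ones at 245 to 366 and 334 to 452. In *RiboTag* IM3h, beside the calls of *Atf4*, *Ppp1r15a* and *Hspa5*, fibroblast markers were at 214 to 302 CPM against 640 to 751 in naïve, interstitial cell markers at 59 to 139 against 161 to 222 and mesothelial markers at 6.93 to 67.9 against 83.9 to 237. In *ME* the 5 fibroblast markers summed to 1950 to 2060 CPM in naïve, 881 to 987 in IM3h, 1110 to 2850 in IM24h and 3270 to 4010 in IM72h. For cells known for a high load of secreted protein, *ME* naïve and IM3h overlapped: plasma and B cell markers (6 genes, all detected) gave 104 to 235 CPM in naïve and 64.6 to 142 in IM3h, secretory and absorptive epithelium (7 genes) 70.7 to 258 and 85.3 to 528, and pancreatic acinar cells (4 genes) 3.51 to 35 and 4.92 to 26.1. In *RiboTag* the same sets did not overlap and were lower at IM3h, with plasma and B cell markers at 17.5 to 27.1 CPM against 40.6 to 63.2 in naïve, epithelial ones at 17.5 to 24.1 against 38.9 to 66.6 and acinar ones at 1.39 to 3.62 against 3.77 to 18.6 (*Prss2* at 0 in IM3h). The part of any of these cells in the members' changes was not tested.

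Whether the change at IM3h differed between the fractions was tested as an interaction of fraction and surgery. Fraction and Cre line cannot be told apart in it, since *ME* naïve and IM3h mice were of the Gfap-cre line and *RiboTag* mice of the Sox10-icre/ERT2 line. None of the 10 members tested differed (0 called, beside 1.66% of all 17611 genes). An unadjusted p under 0.05 was found for 2, beside 2581 of the 17611 genes, and DESeq2 called both. For *Herpud1*, with log2 fold changes of -0.50 in *RiboTag* and 0.96 in *ME*, the fitted difference of *RiboTag* minus *ME* was -1.38 ± 0.39 (edgeR adjusted p = 0.0926, DESeq2 0.0166). For *Hspa5*, with 1.19 and 2.0, it was -0.72 ± 0.25 (0.166 and 0.0301). For *Atf4* the difference was -0.54 ± 0.27 (adjusted p = 0.394) and for *Ppp1r15a* -0.16 ± 0.50 (adjusted p = 0.941). The other members called in *ME* and not in *RiboTag* were not shown to differ between the fractions either, with fitted differences of either sign: -0.35 ± 0.51 for *Ddit3* (adjusted p = 0.843), -1.43 ± 0.81 for *Asns* (0.455), -1.73 ± 1.37 for *Sesn2* (0.639), -1.59 ± 1.67 for *Trib3* (0.752) and 0.41 ± 0.52 for *Xbp1* (0.812). *Chac1* gave 4.25 ± 2.06 (adjusted p = 0.364), a fitted value that depends on the prior count, since its naïve *RiboTag* libraries were all at 0.

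At baseline, *RiboTag* naïve and *ME* naïve could be compared for 7 members. *Xbp1* was lower in *RiboTag* (log2 fold change -1.15 ± 0.21, adjusted p = 0.00512), the 1 member called beside 25.9% of all 14737 genes tested, and the call was lost under scaling by library totals (adjusted p = 0.227). *Atf4* (-0.02 ± 0.20), *Hspa5* (-0.17 ± 0.19), *Herpud1* (-0.05 ± 0.22) and *Ppp1r15a* (0.14 ± 0.39) gave differences within 1 SE of 0, with adjusted p between 0.555 and 0.948. *Ddit3* was at a mean of 12.7 CPM in *RiboTag* and 23.8 in *ME*, with every *RiboTag* library below every *ME* one (-0.90 ± 0.37, adjusted p = 0.103), and *Asns* at 8.16 and 12.6 CPM with overlapping libraries (-0.63 ± 0.46, adjusted p = 0.349). *Xbp1* and *Ddit3* were the 2 members with an unadjusted p under 0.05, beside 5747 of the 14737 genes tested. The naïve fractions came from different Cre lines, so fraction and line cannot be told apart here.

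**Figure D3:**
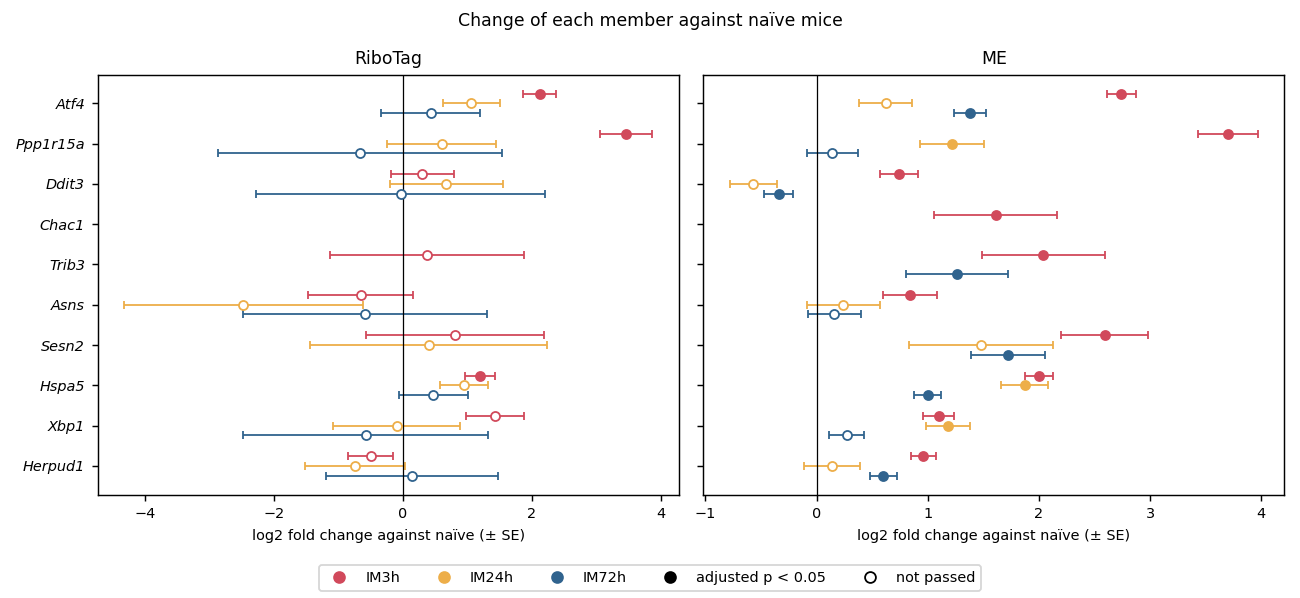
Log2 fold change against naïve mice (x axis, with SE as bars) of each of the 10 genes at IM3h, IM24h and IM72h in *RiboTag* (left) and *ME* (right); filled points passed adjusted p under 0.05 and genes that did not pass the filter on low counts have no point; the panels have different x ranges. In *ME* all 10 IM3h points are filled and positive; in *RiboTag* those of *Atf4*, *Ppp1r15a* and *Hspa5* are.

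At IM24h no member passed in *RiboTag*. Of the 8 tested, 0 were higher (background 0.366% of 15304 genes) and 0 lower (0.131%), and DESeq2 also called 0. An unadjusted p under 0.05 was found for 2, beside 2015 of the 15304 genes. Those 2 were *Atf4*, at 127, 95.5, 255 and 302 CPM (log2 fold change 1.06 ± 0.44 against naïve, adjusted p = 0.31), and *Hspa5*, at 294, 345, 195 and 419 CPM (0.95 ± 0.37, adjusted p = 0.259). In both genes 1 library lay within the naïve range or next to it and the others lay above. *Ppp1r15a* lay below every naïve library in 2 libraries (7.51 and 5.69 CPM) and above them in the other 2 (41.9 and 35.5 CPM). *Trib3* had 0, 0, 1 and 0 counts and *Asns* 31, 0, 0 and 0. In libraries 2 and 3 AY036118 took over 50% of the counts, and without both, an alternative chosen after seeing the data, 0 members were called and *Atf4* and *Hspa5* gave 1.2 (adjusted p = 0.175) and 1.14 (0.129).

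In *ME* at IM24h 3 of the 8 members tested were higher, beside 15.6% of 16328 genes, and 0 were lower, beside 13.4%. DESeq2 called 4 higher and 0 lower, and 6 members had an unadjusted p under 0.05, beside 6634 of the 16328 genes. *Hspa5* stood at 909, 875, 1080 and 650 CPM, all above the highest naïve library at 277 CPM (log2 fold change 1.87 ± 0.21, adjusted p = 0.000245). *Xbp1* stood at 93.9, 95.4, 139 and 110 CPM against at most 56 in naïve (1.18 ± 0.20, adjusted p = 0.00188). *Ppp1r15a* stood at 40.9, 60.5, 37.8 and 25.5 CPM against at most 22.4 (1.22 ± 0.29, adjusted p = 0.0109), a call lost without naïve library 2 (0.0548) or 3 (0.0588). *Atf4* had come down to 233, 231, 185 and 116 CPM, with the lowest library inside the naïve range of 111 to 141 CPM (0.62 ± 0.24, adjusted p = 0.0753). *Atf4* was called without IM24h library 4 (0.80, adjusted p = 0.00278), with DESeq2 (0.0427), with all *ME* libraries in one fit (0.0225) and with library totals (0.00334). With the reference genes *Atf4* was not called, and *Hspa5* was the 1 member higher. *Ddit3*, at 11.8, 16.5, 17.6 and 15.8 CPM, lay below every naïve library (-0.57 ± 0.21, adjusted p = 0.0667). The groups differ in Cre line and in AY036118 share, and scaling by library totals moved the median of all genes from 0.02 to 0.66 and scaling by the reference genes to -0.35; relative to these shifts *Hspa5* stayed called under both, 6 members were called under the former and 1 under the latter. No member was shown to differ between the fractions at IM24h (0 called of 8 tested, beside 0.537% of 17501 genes, and DESeq2 called 0). *Hspa5* was the 1 member with an unadjusted p under 0.05, beside 2357 of the 17501 genes.

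At IM72h no member of the 7 tested was higher (background 1.05% of 13572 genes) or lower (15.1%) in *RiboTag*, and DESeq2 called 0. An unadjusted p under 0.05 was found for 0 of them, beside 3063 of the 13572 genes. *Atf4* spread from 22 to 232 CPM (232, 197, 22 and 68.6) around the naïve values, and *Hspa5* from 87.9 to 362 CPM (362, 277, 87.9 and 194). *Ddit3* and *Ppp1r15a* each had counts in 1 library, 78 and 79 counts in library 1, and 0 in the other 3, while *Asns* had 38 counts in library 2 and *Sesn2* 10 in library 4 as their sole counts. *Trib3* had 0 counts in all 4 libraries. *Herpud1* had 53, 202, 0 and 83 counts. All 7 tested members overlapped between the groups.

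In *ME* at IM72h 5 of the 9 members tested were higher, beside 29.3% of 16592 genes, and 1 was lower, beside 28.3%. *Atf4* was at 374, 326, 339 and 284 CPM (log2 fold change 1.38 ± 0.14, adjusted p = 1.27e-05), *Sesn2* at 3.94, 5.48, 4.45 and 4.28 CPM (1.72 ± 0.33, adjusted p = 0.00118) and *Hspa5* at 472, 514, 490 and 483 CPM (1.0 ± 0.12, adjusted p = 5.16e-05). All libraries of these 3 genes lay above naïve, and those of *Hspa5* had a mean of 490 CPM with an SD of 17.9 (n = 4). *Herpud1*, at 77.5, 81.3, 69 and 73.3 CPM, gave 0.60 ± 0.12 (adjusted p = 0.00113) and *Trib3*, with 19, 18, 32 and 23 counts, 1.26 ± 0.46 (adjusted p = 0.0367). The *Trib3* call was lost without IM72h library 1 (0.0511) or 3 (0.0881) and without naïve library 2 (0.0917) or 3 (0.136). *Ddit3* was the member called lower, at 17.6, 19.8, 18 and 18.6 CPM against 20.4 to 25.9 in naïve (-0.34 ± 0.13, adjusted p = 0.0458); this call was kept in 4 of 15 alternatives (in 1 of 7 that left out a library), and the value turned to 0.25 under scaling by library totals. Scaling by library totals moved the median of all genes from 0.02 to 0.62 and scaling by the reference genes to -0.58, with 8 and 2 members higher. Under the latter *Herpud1* (-0.01, adjusted p = 0.963), *Hspa5* (0.40, 0.0691) and *Trib3* (0.65, 0.277) were not called. As at IM24h, Cre line and time cannot be told apart.

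In the interaction at IM72h 1 of 9 members tested was called, beside 23.3% of 16524 genes. This was *Trib3* (fitted difference -7.92, adjusted p = 0.00234), which had not passed the filter on low counts in *RiboTag* IM72h and entered the joint fit through *ME*. It had 0 counts in all 4 *RiboTag* IM72h libraries, after 6, 15 and 13 in naïve, and the libraries with 0 were those with 58.0 to 80.1% AY036118. The fitted value depends on the prior count and is no bound, and a difference between the fractions is not read from it.

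Along the time course, *Ppp1r15a* was the member that fell from IM3h to IM24h in *RiboTag* (log2 fold change -2.76 ± 0.60, adjusted p = 0.0368), with every IM24h library below every IM3h one. It was 1 of 8 members tested, beside 1.9% of 14193 genes, and the call held in 2 of 8 fits that left out 1 library. It was lost without IM24h library 2 (0.0736) or 4 (0.0637) and without IM3h library 1 (0.0867), 2 (0.114), 3 (0.118) or 4 (0.0562). *Atf4* also lay lower in each IM24h library than in each IM3h library, 95.5 to 302 against 309 to 433 CPM (-0.96 ± 0.38, adjusted p = 0.239). From IM24h to IM72h 0 of 6 members changed in *RiboTag*, beside 0% of 9344 genes, and DESeq2 called 0 members. An unadjusted p under 0.05 was found for 0 members, beside 590 of the 9344 genes.

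In *ME*, IM3h came from the Gfap-cre line and IM24h from the Sox10-icre/ERT2 line, so Cre line and time cannot be told apart in this step or in the order of levels across it. Of 10 members 4 changed from IM3h to IM24h, all of them down, beside 27.6% of 16199 genes. The log2 fold change was -2.03 ± 0.23 for *Atf4* (adjusted p = 0.0003), -2.38 ± 0.30 for *Ppp1r15a* (0.000508), -1.22 ± 0.21 for *Ddit3* (0.00215) and -0.73 ± 0.24 for *Herpud1* (0.0471). The *Herpud1* value turned to 0.06 under scaling by library totals, and its call was lost without IM24h library 1 (0.0755) or 3 (0.119) and without IM3h library 1 (0.103), 2 (0.142) or 3 (0.109). The *Ddit3* call was lost under scaling by library totals (0.127). *Hspa5* (-0.04 ± 0.18, adjusted p = 0.892) and *Xbp1* (0.16 ± 0.17, adjusted p = 0.514) did not pass, with overlapping libraries. From IM24h to IM72h 4 of 9 members changed, beside 38.5% of 16281 genes. Of these, *Hspa5* (-0.88 ± 0.16, adjusted p = 0.00168), *Xbp1* (-0.91 ± 0.17, 0.00171) and *Ppp1r15a* (-1.09 ± 0.27, 0.00839) fell, and *Atf4* rose by 0.75 ± 0.21 (0.0165), a call lost without IM24h library 3 (0.0519) or IM72h library 1 (0.0506). By mean level in *ME*, *Atf4* ordered as naïve, IM24h, IM72h and IM3h, where the test of naïve against IM24h missed the threshold, and *Hspa5* as naïve, IM72h, IM24h and IM3h, where that of IM24h against IM3h did.

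The kinases and sensors at the head of the pathway were called in part in *ME* IM3h and not in *RiboTag* IM3h. They were not shown to differ between the fractions, since none was called in the interaction of fraction and surgery at IM3h. Of the eIF2α kinases, *Eif2ak4* (GCN2, the sensor of uncharged tRNA) rose in *ME* IM3h from 7.08 to 10.7 CPM (log2 fold change 0.59 ± 0.19, adjusted p = 0.0393; this call was lost without any 1 of the 6 libraries, at adjusted p up to 0.133), whereas *Eif2ak1* (HRI, 0.07 ± 0.18), *Eif2ak2* (PKR, -0.05 ± 0.21) and *Eif2ak3* (PERK, 0.07 ± 0.35) gave adjusted p of 0.793 to 0.901. Of the ER sensors, *Ern1* (IRE1) rose from 4.02 to 11.2 CPM (1.43 ± 0.28, adjusted p = 0.00363) and *Atf6* from 17.6 to 28.8 CPM (0.71 ± 0.14, adjusted p = 0.00292), and *Atf6b* did not pass (-0.26 ± 0.16, adjusted p = 0.243). *Ern2* was not tested. In *RiboTag* IM3h none of these passed: the log2 fold changes were 0.50 ± 0.30 for *Eif2ak1*, -0.28 ± 0.29 for *Eif2ak2*, 0.98 ± 0.90 for *Eif2ak3*, 0.51 ± 0.41 for *Eif2ak4*, 1.39 ± 1.04 for *Ern1*, 0.81 ± 0.42 for *Atf6* and 0.26 ± 0.48 for *Atf6b*, with adjusted p of 0.255 to 0.794. Of the whole list of ER sensors and their proteases (10 genes), 0 of 9 tested were called in *RiboTag* IM3h (1 at an unadjusted p under 0.05), and 4 were higher and 1, *Creb3l2*, lower (-0.70, adjusted p = 0.002) in *ME* IM3h.

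All list counts at IM3h stand beside the same shares of all genes tested, 8.86% higher and 4.44% lower in *RiboTag* and 19.3% and 13.4% in *ME*, and several are near them. Transcription factors and targets that work with ATF4 and CHOP (24 genes) were called higher in *RiboTag* IM3h for 6 of 21 tested, with 1 lower (*Atf5*, -0.76 ± 0.21, adjusted p = 0.034), and in *ME* IM3h for 11 of 21, with 1 lower (*Sesn1*, -0.71, 0.019). *Atf3*, a stress-induced repressor, rose by 5.46 ± 0.41 in *RiboTag* (3.1 to 138 CPM, adjusted p = 1.85e-05) and by 4.85 ± 0.26 in *ME* (adjusted p = 9.53e-07). In *RiboTag*, *Bcat1*, which transaminates branched-chain amino acids, rose by 3.55 ± 0.86 (adjusted p = 0.0177) and *Gadd45a*, a growth arrest gene, by 2.87 ± 0.47 (0.00222). In *ME*, *Cebpb*, a partner of ATF4 on CARE sites, rose by 4.21 ± 0.32 (8.97e-06) and *Cdkn1a*, the cell cycle inhibitor p21, by 3.90 ± 0.16 (3.38e-07). Several of these genes also answer other stress and inflammatory signals. *Atf3* was the 1 gene of this list called at IM24h in *RiboTag* (5.55 ± 0.90, adjusted p = 0.0206). That call was lost in 5 of 7 fits that left out 1 library (IM24h library 2 or 4, or any naïve one; adjusted p up to 0.18), and the list held 0 called under library totals, the reference genes or all libraries in one fit. At IM3h the *RiboTag* calls of *Atf5* and *Bcat1* were lost in 6 and 2 of 7 such fits (adjusted p up to 0.127 and 0.0666), and the *ME* call of *Sesn1* in 3 of 6 (up to 0.076).

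Amino acid supply genes (21) were higher for 4 of 18 tested in *RiboTag* IM3h and 0 lower, and for 6 of 19 in *ME* IM3h with 1 lower. The cationic amino acid transporter *Slc7a1* rose by 1.99 ± 0.29 in *RiboTag* (adjusted p = 0.00119) and by 1.97 ± 0.14 in *ME* (5.21e-06). In *RiboTag* the mitochondrial folate enzyme *Mthfd2* rose by 3.0 ± 0.70 (0.0154, and 0.074 without naïve library 3) and the leucine transporter *Slc7a5* by 2.45 ± 0.38 (0.00148). In *ME* the cystine transporter *Slc7a11* rose by 3.39 ± 0.64 (0.00273), from 0.237 to 2.95 CPM. These rises stood beside an *Asns* that was called in *ME* and not in *RiboTag*. At 24 h in *ME* the list held 6 higher and 2 lower of 19, led by *Slc7a11* (4.68 ± 0.84, adjusted p = 0.00255) and *Slc7a5* (4.43 ± 0.63, 0.000777), and at 72 h 8 higher and 2 lower of 20, led by the folate enzyme *Aldh1l2* (3.58 ± 0.41, 3.37e-05).

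Of 18 tRNA synthetases, 3 were higher and 0 lower in *RiboTag* IM3h, namely *Tars* (1.70 ± 0.27, adjusted p = 0.0017), *Rars* (1.62 ± 0.29, 0.00378) and *Eprs* (1.16 ± 0.25, 0.00988). In *ME* IM3h 7 were higher and 0 lower, with *Cars* (1.62 ± 0.16, 4.04e-05), *Yars* (1.08 ± 0.17, 0.000886) and *Tars* (0.98 ± 0.11, 0.000113) at the top. Of the eIF2 machinery (17 genes, kinases included), 3 were higher in *RiboTag* IM3h and 6 in *ME* IM3h, with 0 lower in either. *Eif2s2*, the β subunit of eIF2, rose by 1.58 ± 0.27 in *RiboTag* (0.00292) and 0.99 ± 0.10 in *ME* (5.05e-05), and *Ppp1r15b*, the constitutive counterpart of GADD34, by 1.44 ± 0.30 (0.00859) and 1.38 ± 0.16 (0.000117).

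On the ER side, chaperones and folding enzymes (22 genes) were higher for 1 of 21 tested in *RiboTag* IM3h, *Hsp90b1* (GRP94, 1.26 ± 0.34, adjusted p = 0.0289, 345 to 828 CPM), with 0 lower. In *ME* IM3h 8 were higher and 2 lower, among them *Dnajb9* (2.57 ± 0.21, 1.23e-05) and *Manf* (1.25 ± 0.13, 5.18e-05). Genes of ER-associated degradation (21) were higher for 2 of 20 in *RiboTag* IM3h, the ubiquitin-conjugating enzyme *Ube2j2* (1.93 ± 0.30, 0.00174) and *Ubxn4* (0.96 ± 0.28, 0.0392), and for 9 of 20 in *ME* IM3h, where these were 0.90 ± 0.15 (0.00118) and 1.09 ± 0.12 (0.000108). Genes of translocation and vesicle transport (21) were higher for 1 of 21 in *RiboTag* IM3h (*Sec63*, 0.80 ± 0.23, 0.0367), and for 4 of 21 in *ME* IM3h, with 2 lower. With 1 library left out in turn, the *RiboTag* IM3h call of *Hsp90b1* was lost in 4 of 7 fits (adjusted p up to 0.12), that of *Ubxn4* in 5 (0.129) and that of *Sec63* in 6 (0.122). Of the 21 genes of the 8 lists called in *RiboTag* IM3h, 11 kept their call in every such fit, and of 62 in *ME* IM3h 38 did. Under reference gene scaling 1 gene of the ATF4 partners and 1 of amino acid supply were still called in *RiboTag* IM3h among the 8 lists. With all *RiboTag* libraries in one fit 0 were. These settings act on all genes tested, and the share of all genes called under them is not given here.

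**Figure D4:**
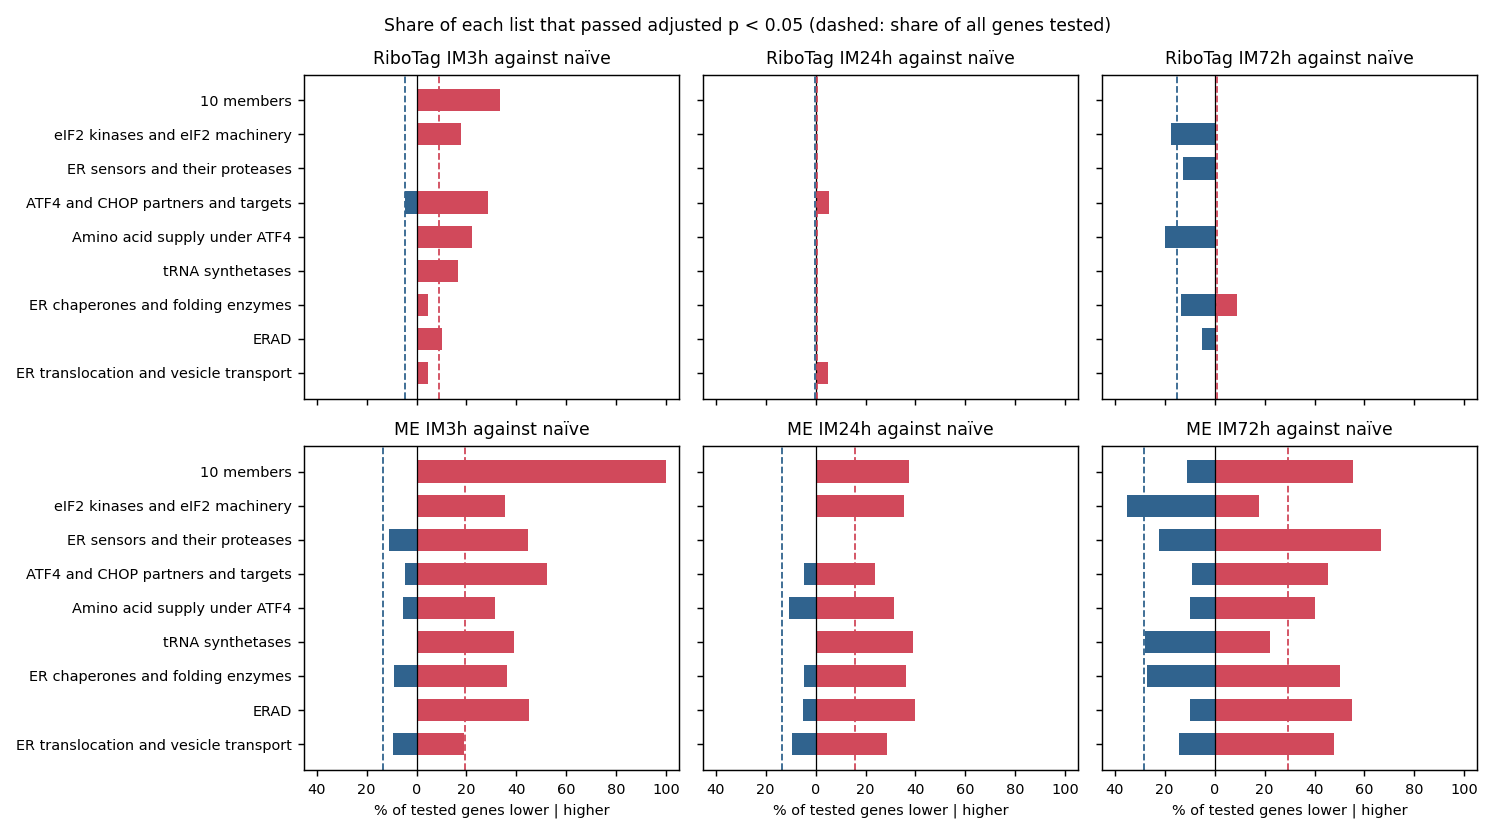
Share of the tested genes of each list (x axis, percent) that passed adjusted p under 0.05 higher (red, right of 0) or lower (blue, left of 0) against naïve mice, for the 10 members and 8 pathway lists in 6 comparisons; dashed lines give the share of all genes tested. In *ME* IM3h the members stand at 100 beside a background of 19.3, and in *RiboTag* IM24h nearly all lists are empty.

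The late list counts in *ME* stand beside 15.6% of all genes higher and 13.4% lower at 24 h, and 29.3% higher and 28.3% lower at 72 h; the tRNA synthetases at 72 h were near these shares. At 24 h in *ME* the ER lists were higher for 8 of 22 (chaperones, 1 lower), 8 of 20 (degradation, 1 lower) and 6 of 21 (translocation, 2 lower). Examples were the folding factor *Creld2* (1.78 ± 0.25, adjusted p = 0.000685) and the BiP cofactor *Dnajb11* (1.58 ± 0.18, 0.000248), *Edem1*, which hands misfolded glycoproteins to degradation (1.29 ± 0.18, 0.000751), and *Sec61b* of the ER translocon (2.0 ± 0.22, 0.000256). At 72 h they were 11 higher and 6 lower of 22, 11 and 2 of 20, and 10 and 3 of 21. *Sec61b* (1.87 ± 0.15, 3.51e-06) and *Pdia6*, a disulfide isomerase (1.24 ± 0.14, 2.85e-05), were higher, and *Pdia4*, another, was lower (-2.17 ± 0.14, 1e-06). The steepest called changes of the translocation and chaperone lists at 72 h were lower: *Sec61g*, a further subunit of the translocon, fell from 6.67 to 0.776 CPM (-3.06 ± 0.56, 0.000761) and the ER-resident neurotrophic factor *Cdnf* from 3.04 to 0.655 CPM (-2.21 ± 0.41, 0.000942). The eIF2 machinery was higher for 6 and lower for 0 of 17 at 24 h, and for 3 and 6 at 72 h, where *Impact*, an inhibitor of GCN2, was lower (-1.85 ± 0.13, 1.34e-06). The tRNA synthetases were 7 higher and 0 lower of 18 at 24 h and 4 and 5 at 72 h, and the ATF4 partners 5 and 1 of 21 and 10 and 2 of 22, led at 72 h by the stress hormone *Gdf15* (3.24 ± 0.52, 0.00033). With 1 library left out in turn, 28 of the 53 genes of the 8 lists called in *ME* at 24 h, and 69 of the 91 at 72 h, kept their call in every fit. The counts also depend on the scaling: under the reference genes the tRNA synthetases at 72 h were 0 higher and 11 lower, under library totals 11 and 0. For the ER lists, under the reference genes, they were 4, 0 and 3 higher at 24 h and 4 higher and 10 lower, 2 and 7, and 3 and 8 at 72 h. Each scaling shifts all genes of a comparison together, so these swings are not read as a trait of the lists. The share of all genes called under each scaling is not given here. The examples chosen by the size of their change in the 6 comparisons kept their direction under each of the 4 other scalings.

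In *RiboTag* at 24 h and 72 h few genes of the 8 lists passed: 2 higher and 0 lower at 24 h (0.366% and 0.131% of all genes tested), and 2 higher and 11 lower at 72 h (1.05% and 15.1% of all genes tested). *Sec61b* was higher at 24 h (24.7 to 114 CPM, 2.21 ± 0.43, adjusted p = 0.0439), but this call, like that of *Atf3*, was lost without IM24h library 2 or 4 or any naïve library (adjusted p up to 0.335), and under library totals, the reference genes, all libraries in one fit or, for *Sec61b*, without the rRNA genes. Without IM24h library 2, or without library 4, 0 of all genes tested were called in this comparison. The lectin chaperone *Calr* (186 to 1140 CPM, 2.61 ± 0.46, 0.00892) and *Hsp90b1* (182 to 537 CPM, 1.56 ± 0.38, 0.0216) were higher at 72 h, both named after their values were seen. Library totals and the reference genes moved the median of all genes in this comparison down. The values of *Calr* and *Hsp90b1* under these scalings are not given here. Those called lower had almost no counts left: *Psat1* (7.68 CPM in naïve, adjusted p = 0.0198) and *Slc1a4* (6.11 CPM, 0.0144) of amino acid supply, *Dnajb11* (8.97 CPM, 0.0246) and *Erlec1* (11 CPM, 0.0335) were at 0 in all 4 IM72h libraries. Without single naïve libraries the 72 h calls of *Hsp90b1* and *Dnajb11* were lost in 3 of 7 fits (adjusted p up to 0.133 and 0.0744) and that of *Erlec1* in 2 (0.113), and 5 of the 13 genes called at 72 h kept their call in every fit. In these libraries AY036118 took 58.0 to 80.1% of the counts, and its part in these values was not tested.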

How the data were processed

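*ME* of the small bowel was sampled in naïve mice and at IM3h, IM24h and IM72h, as total RNA and as *RiboTag* mRNA. The authors made 3′ mRNA libraries (QuantSeq) with single-end reads, trimmed them with cutadapt, aligned them with STAR to mm10 in Partek Flow and deposited expected counts (estimated counts, 29.3 to 61.0% of a table's values over 1e-06 from a whole number) per gene for *ME* and per Ensembl transcript for *RiboTag* and *ME*.

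Transcript counts were summed by symbol and rounded. Each *RiboTag* table lists its own transcripts. For levels, steps between time points, the naïve fractions and the fit of all libraries, these tables were joined. A naïve library then took the largest sum of a gene over the tables, and a gene missing from a table was set to 0 there. Tests of a time point against naïve used the table of that time point. Lines of the tables were grouped by their own group entry. The study gives n as animals. Counts were fitted in edgeR 4.0.16 (R 4.3.3; quasi-likelihood, filterByExpr, TMM, 2-sided, Benjamini-Hochberg over all genes tested, threshold 0.05), with the 2 groups of a comparison in each fit and 4 groups for the interaction. SE are the log2 fold change over the root of F. DESeq2 1.42.0 and other scalings, filters and sample sets were alternatives; leaving out single libraries for the genes of the lists was chosen after seeing the data. The scripts were tested on simulated data. Gene positions and promoters are from RefSeq, GRCm38.p6, the build of mm10, with all 10 members matched. Intervals and limits of 3 counts cover counting error only.

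The 10 members and the lists were chosen with earlier results of these data known. Named were the members, the kinases and sensors at 3 h, and from each list up to 3 genes with the largest absolute log2 fold change among those called whose libraries did not overlap between groups; not all of these are printed. *Atf5*, *Sesn1* and *Creb3l2* at 3 h and *Calr* and *Hsp90b1* in *RiboTag* at 72 h lie outside this rule and were named after their values were seen. *Fgf21* and *Adm2* of the lists were not analysed here, and 1 glial marker is not reported here.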

Additional observations from a re-analysis of the deposited data

Results flagged for a closer look

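In groups of 4 libraries, 1 library stood apart from the others by Dixon's criterion in 9 of 47 tests. The usual chance rate of about 1 in 20 does not apply to 6 of the 9, in which the other 3 libraries were at 0 and any value above 0 meets the criterion. *Atf4* in *RiboTag* IM3h library 4 (309 CPM) lay below the others, which were at 419 to 433 CPM. The other *RiboTag* values were libraries with counts among libraries at or near 0: *Ddit3* (36.9 CPM) and *Ppp1r15a* (37.4 CPM) in IM72h library 1, *Asns* in IM72h library 2 (16.6 CPM), *Sesn2* in IM72h library 4 (6.13 CPM), *Trib3* in IM24h library 3 (0.441 CPM), *Asns* in IM24h library 1 (3.88 CPM) and *Sesn2* in IM24h library 4 (6.84 CPM). In *ME* it was *Chac1* in IM72h library 4 (0.649 CPM), with 10 counts beside 3 in each other library.

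The interaction of fraction and time at IM72h called *Trib3* (fitted log2 difference -7.92, edgeR, adjusted p = 0.00234). It had 0 counts in all 4 *RiboTag* IM72h libraries against 6, 15 and 13 in naïve and entered the fit through *ME*, so no difference between the fractions is read from this value.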

How the results depend on the processing

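No paired analysis was possible because the lines of the count tables carry no replicate numbers. Of the recomputed counts of called members, 265 stayed within 1.5 times the value reported and 39 did not. In *RiboTag* IM3h the count of members higher was 1 with reference gene scaling and 0 with all libraries in one fit, and the step from IM3h to IM24h then had 0. In *ME* IM24h it was 6 with library totals, 1 with reference genes and 5 with all libraries in one fit, which also called 1 lower. In *ME* IM72h it was 8 with library totals and 2 with reference genes, and the count lower was 0 with library totals, without rRNA genes, without the low count filter, with DESeq2 and with all libraries in one fit. Members that differed between fractions numbered 2 with DESeq2 at IM3h, 1 with library totals at IM24h, and 3 with library totals and 2 with reference genes at IM72h; naïve fractions differed for 0 members with library totals.

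Leaving out 1 library gave 0 to 2 members lower in *RiboTag* IM72h, 0 to 1 lower in *ME* IM72h, 0 to 1, 0 to 1 and 0 to 3 that differed between fractions at 3 h, 24 h and 72 h, and 0 to 1 for the *RiboTag* step from IM3h to IM24h, where 6 of the 8 fits lost *Ppp1r15a*. The 2 members lower in *RiboTag* IM72h appeared without library 1, which holds all counts of *Ddit3* and *Ppp1r15a* there.

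Reference gene scaling turned the sign of *Ddit3* (-0.10) and *Trib3* (-0.57) in *RiboTag* IM3h, *Atf4* (-0.61), *Ddit3* (-1.12), *Hspa5* (-0.52), *Ppp1r15a* (-1.24) and *Sesn2* (-1.35) in *RiboTag* IM24h, *Atf4* (-1.35), *Hspa5* (-1.27) and *Herpud1* (-1.55) in *RiboTag* IM72h, *Asns* (-0.07) and *Herpud1* (-0.35) in *ME* IM24h, and *Asns* (-0.43), *Xbp1* (-0.32), *Ppp1r15a* (-0.49) and *Herpud1* (-0.01) in *ME* IM72h. Library totals did so for *Ddit3* (-0.38), *Ppp1r15a* (-0.44) and *Sesn2* (-0.34) in *RiboTag* IM24h, *Atf4* (-1.15), *Hspa5* (-1.16) and *Herpud1* (-1.42) in *RiboTag* IM72h, *Ddit3* in *ME* IM24h (0.05) and IM72h (0.25), and *Herpud1* from IM3h to IM24h in *ME* (0.06). RLE factors did so for *Ddit3* in *RiboTag* IM72h (0.01), and leaving out both IM24h *RiboTag* libraries rich in AY036118, chosen after seeing the data, for *Xbp1* (0.27) and *Herpud1* (0.04). By construction, scaling shifted all genes of a comparison, in *RiboTag* IM3h the median from -0.04 to -0.24 with library totals and to -0.45 with reference genes, in *ME* IM3h from 0.00 to -0.26 and -0.41, in *RiboTag* IM24h from -0.11 to -0.96 and -1.51 and in IM72h from -0.40 to -2.13 and -2.07.

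Leaving out 1 library, values that changed sign ranged from 0.00 to 0.56 for *Ddit3* and -1.09 to 0.78 for *Trib3* in *RiboTag* IM3h, -0.85 to 0.30 for *Xbp1* in IM24h, and -0.01 to 0.73 for *Atf4*, -8.59 (all other libraries at 0, so no bound) to 0.38 for *Ddit3* and -0.63 to 0.52 for *Herpud1* in IM72h; in *ME*, -0.07 to 0.31 for *Herpud1* at IM24h and -0.06 to 0.36 for *Asns* at IM72h. The cause of these shifts was not tested.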
